A study of Mus musculus with 6 samples.

Results

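The genes described here build, transfer and remodel the sugar chains of secretory and membrane proteins. They comprise the Alg genes, which assemble the lipid-linked oligosaccharide, the subunits of oligosaccharyltransferase (OST), the glucosidases and mannosidases that trim the chain, and the Golgi enzymes that add N-acetylglucosamine, N-acetylgalactosamine (GalNAc), galactose, sialic acid and fucose. Protein-coding genes were taken by a rule on their names, which gave 109 of the 56747 genes in the table (108 names, since St6galnac2 has 2 identifiers, 1 of them with no count). The samples were primary pancreatic islets of male C57BL/6J mice, 6 to 8 weeks old, kept for 2 h in RPMI medium with glucose at 2.5 mM (low glucose, libraries low 1, low 2 and low 3) or at 25 mM (high glucose, libraries high 1, high 2 and high 3). All islets had first recovered overnight after isolation and then spent 4 h in medium without glucose, and cycloheximide was present for the last 15 min in both conditions. Each replicate pooled islets of 7 to 9 mice, and the islets of every mouse were divided between both conditions. In ribosome profiling (Ribo-seq), RNase digests the RNA outside ribosomes and the protected mRNA fragments, the footprints, are sequenced, so the count of a gene follows both its amount of mRNA and the ribosomes on each mRNA.

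N-glycosylation starts in the endoplasmic reticulum (ER), where a branched oligosaccharide is built step by step on the lipid dolichol, first on the cytosolic face of the membrane and then in the lumen, and is handed by OST to asparagines of proteins entering through the translocon. Glucosidases and mannosidases then trim the chain while the protein folds, and enzymes of the Golgi apparatus rebuild it into branched, galactosylated, sialylated and fucosylated forms. Other Golgi enzymes start chains on serine and threonine with GalNAc. Islet cells send large amounts of hormone precursors, granule proteins, receptors and transporters through this route. In mouse beta cells the branching enzyme Mgat4a is known for the glycan that helps hold the glucose transporter Slc2a2 at the cell surface.

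The 3 low glucose libraries held 9242549 to 12175699 counts and the 3 high glucose libraries 16322162 to 20692579, so every high glucose library was deeper, and depth and glucose cannot be told apart by design. Levels are given as counts per 1000000 (CPM) after TMM scaling, whose factors lay between 0.98 and 1.02. The quasi-likelihood F test of edgeR was applied to the 13100 genes that passed its filter on low counts. A positive log2 fold change (log2FC), given with its standard error (SE), stands for more footprints in high glucose, and a gene is called higher or lower at a Benjamini-Hochberg adjusted p under 0.05 over all genes tested. Of the marker lists, 11 of 12 acinar genes tested were lower, with a summed level of 736 to 800 CPM in low and 326 to 346 CPM in high glucose, while the acinar factor Rbpjl was at 0 in every library. Of 7 endothelial markers 2 were lower (summed 224 to 241 against 170.0 to 182 CPM), of 7 stellate and fibroblast markers 2 were lower (135 to 146 against 95.7 to 110.1 CPM), of 8 macrophage markers 1 was lower (85.9 to 100.4 against 69.0 to 71.3 CPM), and of 6 duct markers 2 were higher (1561 to 1602 against 1815 to 1930 CPM). Islet endocrine markers stood at 210290 to 224910 CPM in low and 229520 to 241740 CPM in high glucose, with 3 of 10 higher and 5 lower. In footprints of such bulk samples, fewer cells of a type, less RNA per cell and fewer ribosomes on each mRNA cannot be told apart.

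In high glucose 11 of 26 ER glycosylation genes had more footprints, while Golgi enzymes were called in each direction at shares close to those over all genes tested. Of the 109 genes, 89 had enough counts to be tested and 20 did not, and all of those 20 are Golgi enzymes. Among the 89, 18 (20.2%) were higher, against 12.1% of all genes tested, and 7 (7.87%) were lower, against 10.2% of all genes. Either direction took 25 (28.1%), against 22.2%, and in 39 (43.8%) the libraries of the conditions did not overlap, against 37.5%. Their median log2FC was 0.08, beside -0.01 over all genes tested, and 53 of 89 (59.6%) had a log2FC above 0, beside 49% of all genes. With other processing the median was 0.15 (DESeq2), 0.035 (upper-quartile factors), 0.029 (library totals only), 0.20 (no low-count filter) and 0.12 (replicate number as a block). The medians with DESeq2 and with no low-count filter were taken over the 105 genes with any count. They cover more genes than the 89 behind 0.08, so the change of genes and that of processing are mixed in them. Without low 2 the median was 0.12, and leaving out other libraries gave 0.058 to 0.11. With any 1 library left out, 89 to 91 of the genes were tested. Of these, 12 to 16 were higher (8.79% to 10.4% of all genes) and 5 to 6 were lower (7.43% to 8.93%), the fewest higher (12) without high 1 or 2. DESeq2 called 15 higher and 6 lower of the 96 it tested, against 8.76% and 8.40% of all genes it tested (17.2% in either direction). With library totals as the only scaling, 14 of 89 were higher and 10 lower, against 10.01% and 12.1% of all genes (22.1% in either direction). Together the genes took 0.961% ± 0.0088 of all counts in low and 1.02% ± 0.0085 in high glucose (SD, 3 libraries each). In the 3 ER groups, assembly, transfer and trimming, 11 of 26 genes were higher and 1 was lower, with a median of 0.18 and no overlap in 18. In the 5 Golgi groups, 7 of 60 tested genes were higher and 6 were lower, with a median of 0.07 and no overlap in 20, so both counts lay near the shares over all genes tested. The difference between the ER and the Golgi groups was not tested. The upper quartile of log2FC was 0.329 in the ER and 0.326 in the Golgi groups, the lower quartile -0.02 and -0.31. Genes with more counts pass at smaller changes. Mean counts were at least 829.5 for OST genes (Stt3b) and at most 788 for sialyltransferases (St3gal5), though Alg13 had 38.5. The part of counts in the calls was not tested. Groups follow gene families, and the place of each protein in the cell was not measured.

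**Figure D1:**
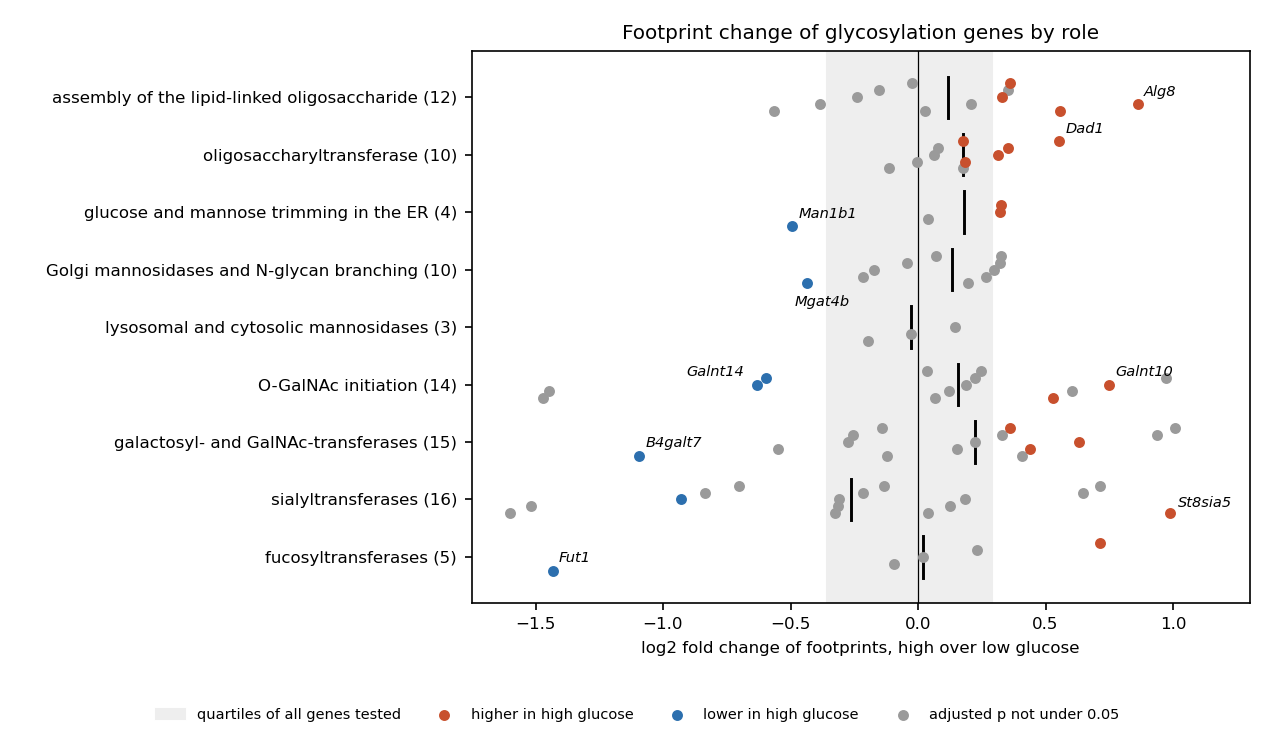
Each point is a tested gene, placed by its log2FC (high against low glucose) on the x axis and by its role on the y axis, with the number tested in parentheses. Red points were higher and blue points lower at an adjusted p under 0.05, black bars are the group medians, and the grey band spans the quartiles of all 13100 genes (-0.36 to 0.29). Points of the ER groups lie mostly to the right of 0, and the sialyltransferases mostly to the left (median -0.26).

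OST transfers the finished oligosaccharide to protein. Of its 10 genes taken by the name rule, 5 were higher and none lower, with a median log2FC of 0.18. Outside the rule, the OST subunit Krtcap2 was lower (log2FC -0.20, adjusted p = 0.036), a call lost in some settings given below. The OST subunit Tmem258, also outside it, had -0.27 (adjusted p = 0.0857). The summed level of the 10 genes was 5162 ± 42.7 CPM at 2.5 mM and 5709.9 ± 15.7 CPM at 25 mM (SD, 3 libraries each), and the conditions did not overlap. The OST genes made up 54.5% ± 0.19 of all counts of the 109 genes in low and 55.2% ± 0.53 in high glucose. Dad1 (ENSMUSG00000022174), a small subunit that the complex needs to stay assembled, had 139, 169 and 150.3 CPM at 2.5 mM and 218, 219 and 235 CPM at 25 mM. Every high glucose library thus lay above every low glucose library, at log2FC 0.55, SE 0.079, adjusted p = 1.81e-05. Magt1, an oxidoreductase subunit of the complex that works after translation, had 325, 320.0 and 335 CPM at 2.5 mM and 404, 414 and 397 CPM at 25 mM, without overlap (log2FC 0.31, SE 0.059, adjusted p = 0.000401). Rpn2, ribophorin II, had the most footprints of all 10, with 1455, 1360.4 and 1393 CPM at 2.5 mM and 1599.6, 1602 and 1576 CPM at 25 mM (log2FC 0.18, SE 0.042, adjusted p = 0.00248), and its conditions did not overlap either. The rise was small for Rpn2 and for Stt3a, at 13.5% and 12.9%.

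Stt3a is the catalytic subunit that acts at the translocon during translation, and Stt3b is the one that acts mainly on sites left over afterwards. Stt3a had 687, 745 and 738 CPM at 2.5 mM and 797, 817 and 836 CPM at 25 mM, with no overlap (log2FC 0.17, SE 0.051, adjusted p = 0.0149). Stt3b had 60.2, 47.0 and 41.6 CPM at 2.5 mM and 61.3, 65.8 and 62.5 CPM at 25 mM, and the highest low glucose library lay just under the lowest high glucose library (log2FC 0.35, SE 0.13, adjusted p = 0.0484). The call on Stt3b was lost without low 2 (adjusted p = 0.136) or 3 (0.234) and without high 1 (0.0863), 2 (0.148) or 3 (0.104), and that on Stt3a without high 2 (0.0592) or 3 (0.0714). Scaling mattered for both, as the adjusted p was 0.0819 and 0.0723 with upper-quartile factors and 0.0948 and 0.0719 with library totals only, and Stt3b also missed the threshold with DESeq2 (0.0809), with DESeq2 size factors in edgeR (0.0567) and with libraries thinned to 1 total (0.06). The other subunits taken by the name rule did not pass. Ostc, a small subunit that joins the Stt3a complex to the translocon, had a mean of 205 ± 11.9 CPM at 2.5 mM and 232 ± 9.08 CPM at 25 mM with no overlap (log2FC 0.18, SE 0.07, adjusted p = 0.0748). Ddost and Rpn1, structural subunits of both complexes, had a log2FC of 0.08 and 0.06 (adjusted p = 0.3 and 0.337), and the small subunit Ost4 had -0.11 (adjusted p = 0.281). Tusc3, the oxidoreductase that can take the place of Magt1, had 154, 161 and 132 CPM at 2.5 mM and 144, 140.5 and 161 CPM at 25 mM, overlapping (log2FC -0.01, SE 0.088, adjusted p = 0.976).

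**Figure D2:**
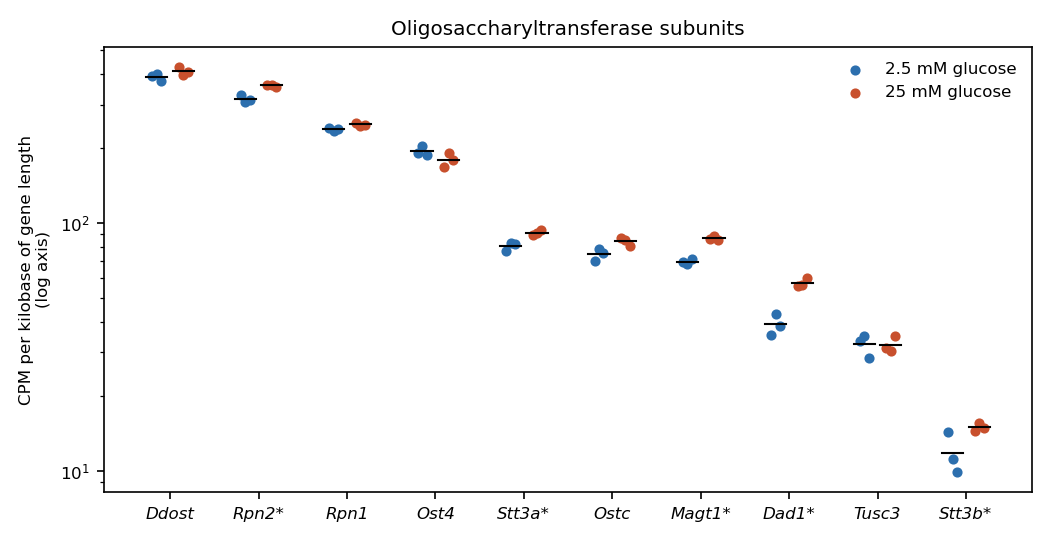
Footprint level of each OST subunit taken by the name rule in CPM per kilobase of gene length, on a log axis, ordered by the mean in low glucose. Points are single libraries (blue 2.5 mM, red 25 mM), bars are means of 3, and an asterisk marks the 5 genes called higher. Ddost, Rpn2 and Rpn1 stand above the others and Stt3b lowest, with the low and high points apart for all 5 called genes. Gene length is not coding length, and the order of the genes per coding length was not determined.

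Per kilobase of gene length, the level in low glucose was 389 ± 13.4 CPM for Ddost, 317 ± 10.9 for Rpn2, 239 ± 3.75 for Rpn1 and 195 ± 8.15 for Ost4 (SD, 3 libraries), and these 4 were separated by more than their spread. Stt3a (80.8 ± 3.58 CPM per kilobase), Ostc (74.6 ± 4.33) and Magt1 (69.9 ± 1.61) followed within or close to each other's spread, then Dad1 (39.0 ± 3.89) and Tusc3 (32.3 ± 3.33), and Stt3b was lowest (11.8 ± 2.27). Gene length here is the deposited value, which has no definition, and not the length of the coding sequence. The spread between libraries does not measure the error this brings, and the order per coding length was not determined. The log2 ratio of Stt3a to Stt3b in CPM was 3.51, 3.98 and 4.14 in low glucose and 3.70, 3.63 and 3.74 in high glucose, a difference of -0.19 (SE 0.19). The low glucose values lay on both sides of the high glucose values (exact two-sided permutation test, p = 0.4). For Tusc3 to Magt1 the log2 ratio was -1.07, -0.99 and -1.34 in low and -1.49, -1.56 and -1.30 in high glucose, a difference of -0.32 (SE 0.13), with 1 low glucose library inside the range of the high ones (exact permutation p = 0.2). With 3 against 3 libraries this test cannot go below 0.1.

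The start regions of 4 of the 5 OST genes called higher are shown because they share a short motif. The 250 bases before the annotated start were taken from the RefSeq promoter windows (build GRCm38.p6) and searched on both strands for CCAAT, the letters known to be bound by the factor NF-Y, of which ATTGG is the reverse complement. Windows were found for 81 of the 108 gene names. CCAAT was in 7 of the 8 OST genes with a window (87.5%: Dad1, Ddost, Magt1, Rpn1, Rpn2, Stt3a and Stt3b), against 39.5% of 16769 protein-coding genes and 39.5% (32) of the 81. Ddost and Rpn1 hold it too and did not pass the test of footprints. A gene with several annotated starts counts if any of its windows holds the letters, as for Rpn2, which has 2 windows, 1 of them with a match, and is not printed. In the sequences, printed 5′ to 3′ on the strand of the gene, capitals mark each match on either strand. Dad1 (chr14:54253930-54254179, minus strand) holds 2 matches that overlap, starting 14 and 11 bases before the start.
Dad1: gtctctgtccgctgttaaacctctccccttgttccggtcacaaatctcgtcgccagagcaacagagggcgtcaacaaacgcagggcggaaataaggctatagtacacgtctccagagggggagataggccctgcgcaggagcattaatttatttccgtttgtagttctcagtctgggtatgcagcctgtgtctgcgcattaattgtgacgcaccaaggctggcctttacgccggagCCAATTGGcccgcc
Magt1 (chrX:106011803-106012052, minus strand) holds 4, from 203 to 63 bases before the start.
Magt1: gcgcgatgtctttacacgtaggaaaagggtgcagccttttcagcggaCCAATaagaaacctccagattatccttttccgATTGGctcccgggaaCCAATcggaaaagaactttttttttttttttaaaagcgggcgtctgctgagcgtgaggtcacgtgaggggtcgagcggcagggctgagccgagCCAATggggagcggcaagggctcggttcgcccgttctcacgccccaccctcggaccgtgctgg
Stt3a (chr9:36767623-36767872, minus strand) holds 1, at 35 bases before the start, and Stt3b (chr9:115310469-115310718, minus strand) holds 1, at 145 bases.
Stt3a: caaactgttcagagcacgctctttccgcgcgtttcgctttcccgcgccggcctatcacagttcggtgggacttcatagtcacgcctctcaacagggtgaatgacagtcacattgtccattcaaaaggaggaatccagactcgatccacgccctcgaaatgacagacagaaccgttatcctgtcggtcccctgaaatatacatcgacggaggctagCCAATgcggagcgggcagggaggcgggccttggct
Stt3b: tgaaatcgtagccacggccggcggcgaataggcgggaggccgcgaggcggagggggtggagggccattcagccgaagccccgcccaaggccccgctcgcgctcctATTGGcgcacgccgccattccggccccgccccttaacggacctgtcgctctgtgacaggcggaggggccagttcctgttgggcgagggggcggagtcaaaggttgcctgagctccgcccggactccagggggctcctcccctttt
Among genes called higher with a window CCAAT was in 7 of 14, among those called lower in 0 of 4, and among those that did not pass in 22 of 49. The longer ER stress response element, CCAAT followed by any 9 bases and CCACG, was found only for Alg12 among the 81 (0.161% of all protein-coding genes hold it), and Alg12 had a log2FC of -0.39 (adjusted p = 0.154). The E-box CACGTG was in 6 of the 81 (7.41%) against 7.83% of all protein-coding genes. These matches are letters in a window, and binding was not measured.

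Of the 12 genes that assemble the lipid-linked oligosaccharide, 4 were higher and none was lower, with a median log2FC of 0.12. Alg5, which makes the dolichol-linked glucose used for the last steps, had 64.9, 67.1 and 73.4 CPM at 2.5 mM and 104, 91.2 and 107 CPM at 25 mM. All high glucose libraries lay above the low ones (log2FC 0.56, SE 0.098, adjusted p = 0.00021), a rise of 47.0%. Alg2, a mannosyltransferase of the cytosolic face with the most footprints of the group, had 303, 346 and 321 CPM at 2.5 mM and 406, 406 and 407 CPM at 25 mM, again without overlap (log2FC 0.33, SE 0.062, adjusted p = 0.000425). Alg8 (ENSMUSG00000035704, chromosome 7), which adds a glucose in the lumen, showed the largest log2FC of the 12, with 11.2, 13.8 and 12.3 CPM at 2.5 mM and 21.2, 24.3 and 22.6 CPM at 25 mM (log2FC 0.86, SE 0.19, adjusted p = 0.00186). Its lowest high glucose library stood above its highest low glucose library. Alg10b, which adds the last glucose, had 46.6, 41.9 and 48.3 CPM at 2.5 mM and 57.5, 62.3 and 56.2 CPM at 25 mM with no overlap (log2FC 0.36, SE 0.11, adjusted p = 0.0254). That call was lost without low 2 (adjusted p = 0.0966) or high 1 (0.0569) or 2 (0.11), with library totals only (0.0534) and with thinned libraries (0.051).

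Glucose is supplied by the product of Alg5 and added by those of Alg6, Alg8 and Alg10b, and 3 of these 4 were higher, a division made after the values were seen. The exception was Alg6, which adds the first glucose, with a mean of 16.9 ± 2.84 CPM at 2.5 mM and 15.3 ± 1.23 CPM at 25 mM and overlapping libraries (log2FC -0.15, SE 0.20, adjusted p = 0.66). Among mannosyltransferases outside Alg2, Alg3 and Alg1 had means of 35.7 ± 3.42 CPM at 2.5 mM and 45.6 ± 2.16 CPM at 25 mM and 61.4 ± 1.03 CPM at 2.5 mM and 71.0 ± 3.06 CPM at 25 mM (adjusted p = 0.0532 and 0.149), each with no overlap, and Alg3 was higher without low 3. Alg12 and Alg9, which add mannose in the lumen, had a log2FC of -0.39 and -0.24 (adjusted p = 0.154 and 0.494), and Alg11, a mannosyltransferase of the cytosolic face, 0.03 (adjusted p = 0.942). The partners Alg13 and Alg14, which together add the second N-acetylglucosamine, had -0.02 and -0.57. For Alg14 the conditions did not overlap, at a mean of 15.3 ± 1.33 CPM at 2.5 mM and 10.3 ± 1.00 CPM at 25 mM (adjusted p = 0.0666), and it was lower with upper-quartile factors and with library totals only, while Alg13 had at most 54 counts in a library.

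Trimming of the transferred chain starts with Mogs, glucosidase I, which removes the outermost glucose, and goes on with glucosidase II, made of the catalytic subunit Ganab and the subunit Prkcsh. Of the 4 genes of this group 2 were higher and 1 was lower. Ganab (ENSMUSG00000071650) had 644, 707 and 696 CPM at 2.5 mM and 840.3, 842 and 883 CPM at 25 mM, with every high glucose library above every low one (log2FC 0.33, SE 0.052, adjusted p = 6.12e-05). Mogs had 105, 109.8 and 127 CPM at 2.5 mM and 151, 140.4 and 136 CPM at 25 mM, also without overlap (log2FC 0.32, SE 0.088, adjusted p = 0.00986), and its call was lost without high 1 (adjusted p = 0.0642). Prkcsh, the gene of the group with the most footprints, had 1004, 951 and 928 CPM at 2.5 mM and 961, 974 and 1027 CPM at 25 mM, and the libraries were mixed (log2FC 0.04, SE 0.048, adjusted p = 0.63). The difference between the subunits was not tested. Man1b1 (ENSMUSG00000036646, chromosome 2), the ER mannosidase that removes the first mannose and marks proteins for degradation, went the other way, with 63.9, 65.2 and 52.9 CPM at 2.5 mM and 41.6, 47.5 and 40.2 CPM at 25 mM. Its conditions did not overlap (log2FC -0.49, SE 0.12, adjusted p = 0.00478). The region before the start of Ganab is shown as that of the called trimming gene with a CCAAT match, the other genes of the group having none in their windows. Ganab (chr19:8897807-8898056, plus strand) holds 2, starting 66 and 30 bases before the start, in capitals.
Ganab: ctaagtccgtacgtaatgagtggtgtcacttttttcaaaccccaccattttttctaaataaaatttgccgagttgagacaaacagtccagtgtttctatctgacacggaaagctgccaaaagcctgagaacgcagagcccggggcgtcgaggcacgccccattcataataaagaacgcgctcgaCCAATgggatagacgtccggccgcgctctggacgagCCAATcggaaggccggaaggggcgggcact

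**Figure D3:**
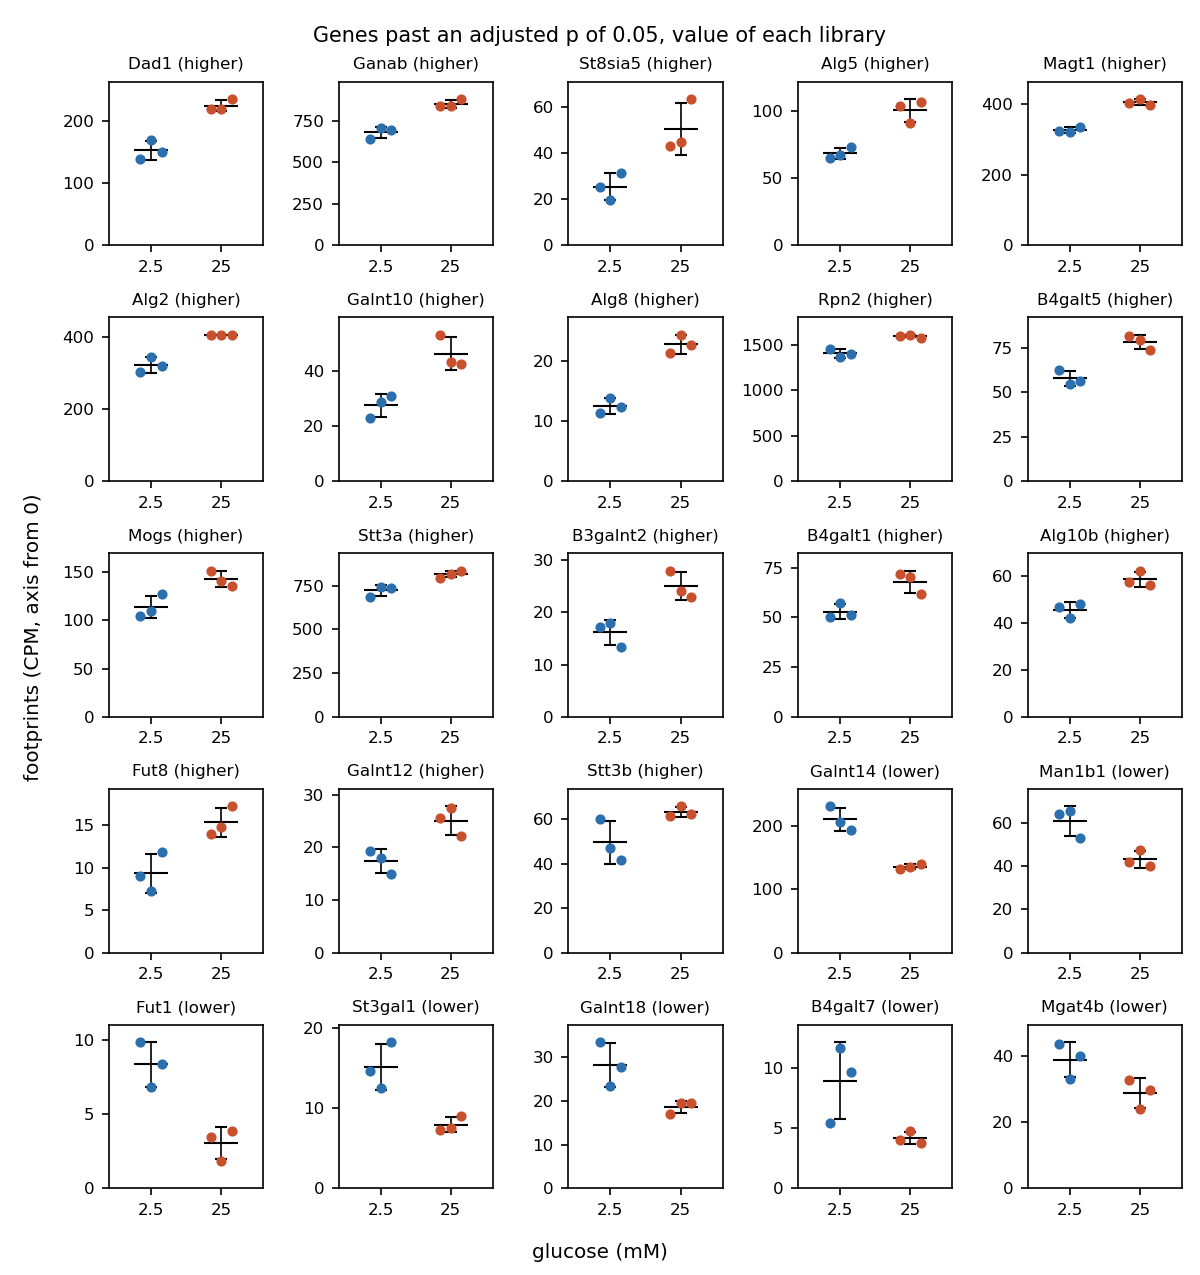
CPM of the 25 genes past an adjusted p of 0.05, 1 panel each, with glucose (mM) on the x axis and the y axis starting at 0. Points are the 3 libraries of each condition and bars give mean ± SD. In all 25 panels the 3 red points and the 3 blue points do not overlap, narrowly so for Stt3b, B4galt7 and Mgat4b.

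In the Golgi, mannosidases trim the chain further and N-acetylglucosaminyltransferases of the Mgat family open its branches. Of 15 such genes 10 were tested, 1 was lower and none was higher, with a median log2FC of 0.13. Mgat4b, which makes the same branch as Mgat4a, had 43.5, 33.1 and 39.9 CPM at 2.5 mM and 32.7, 23.8 and 29.5 CPM at 25 mM, and the lowest low glucose library stood just above the highest high glucose one (log2FC -0.43, SE 0.15, adjusted p = 0.0465). This call was lost without low 1 (adjusted p = 0.151) or 3 (0.123) and without high 2 (0.223) or 3 (0.0972), and also with DESeq2 (0.0612) and with no low-count filter (0.0567). Mgat4a had 3.82, 2.49 and 3.57 CPM at 2.5 mM and 4.66, 2.40 and 5.24 CPM at 25 mM, overlapping (log2FC 0.32, SE 0.44, adjusted p = 0.671). Per kilobase of gene length Mgat4b stood at 14.3 ± 1.93 CPM in low glucose and Mgat4a at 0.256 ± 0.0550. The deposited gene length, 2719 bases for Mgat4b and 12881 for Mgat4a, is not coding length and widens this gap. Without it the means in low glucose were 38.8 ± 5.26 CPM for Mgat4b and 3.29 ± 0.708 CPM for Mgat4a. The log2 ratio of Mgat4a to Mgat4b was -3.46, -3.66 and -3.43 in low and -2.77, -3.24 and -2.47 in high glucose, so all 3 high glucose values were above the low ones. The difference was 0.69 (SE 0.24), and p = 0.1 in the exact two-sided permutation test, the lowest it can give.

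**Figure D4:**
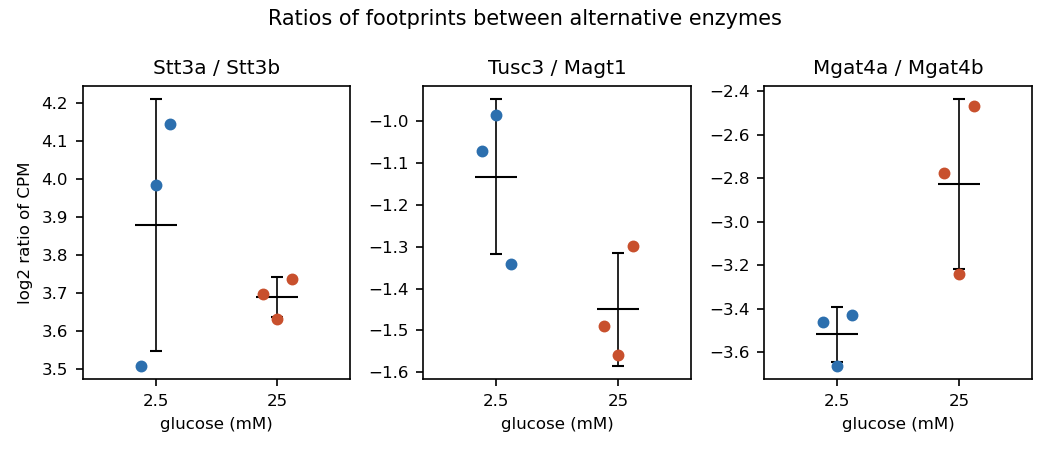
Log2 ratio of CPM between pairs of alternative enzymes in each library, with glucose (mM) on the x axis and the log2 ratio on the y axes, which do not start at 0 and differ between panels. Points are libraries and bars give mean ± SD of 3. Only in the panel of Mgat4a to Mgat4b do the conditions not overlap.

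Man2a1, the Golgi mannosidase with the most footprints of the group, had 63.7, 90.8 and 95.7 CPM at 2.5 mM and 67.5, 66.3 and 82.1 CPM at 25 mM, with low 1 below all 3 high glucose libraries and the other 2 above them all (log2FC -0.21, SE 0.13, adjusted p = 0.256). Without that library it was lower (adjusted p = 0.0123). Its relative Man2a2 had a mean of 24.6 ± 3.17 CPM at 2.5 mM and 30.3 ± 0.748 CPM at 25 mM with no overlap (log2FC 0.30, SE 0.16, adjusted p = 0.187). Mgat1 and Mgat2, which open the first branches, had a log2FC of -0.17 and 0.27, Mgat3, which adds the bisecting residue, 0.32, and Mgat5, which opens a further branch, -0.04 (adjusted p = 0.42, 0.245, 0.2 and 0.885). The mannosidases Man1a2 and Man1c1 had 0.19 and 0.07. Mgat4c, Mgat4d, Mgat4e, Mgat4f and Mgat5b had too few counts to be tested, with at most 32 in any library. Of the 3 mannosidases outside the pathway, the lysosomal Man2b2 had 311, 288 and 277 CPM at 2.5 mM and 262, 225 and 277 CPM at 25 mM, where the lowest low and the highest high library met (log2FC -0.20, SE 0.076, adjusted p = 0.0686). It was lower without high 3 (adjusted p = 0.0443), with upper-quartile factors (0.0285), with library totals only (0.0243), with at least 10 counts in every library (0.0318) and with thinned libraries (0.0375). The lysosomal Man2b1 and the cytosolic Man2c1 had -0.03 and 0.15.

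The Galnt genes encode the GalNAc-transferases that start mucin-type chains on serine and threonine. Of 17, 14 were tested, and 2 were higher and 2 lower. Galnt14 (ENSMUSG00000024064) had the most footprints of the family and the smallest adjusted p of all 109 genes, with 231, 207 and 194 CPM at 2.5 mM and 132, 136 and 139.9 CPM at 25 mM. Every high glucose library lay below every low one, with log2FC -0.63, SE 0.079, adjusted p = 3.11e-06, a fall of 35.4%. Galnt18 had 33.5, 23.5 and 27.9 CPM at 2.5 mM and 17.1, 19.5 and 19.5 CPM at 25 mM, lower without overlap (log2FC -0.60, SE 0.17, adjusted p = 0.0159). Galnt10, an enzyme known to favour peptides that already carry GalNAc, moved up, from 22.8, 28.7 and 31.0 CPM to 53.2, 43.3 and 42.7 CPM with no overlap (log2FC 0.75, SE 0.15, adjusted p = 0.000695). Galnt12 had 19.4, 17.9 and 14.9 CPM at 2.5 mM and 25.5, 27.5 and 22.2 CPM at 25 mM, also apart (log2FC 0.53, SE 0.18, adjusted p = 0.0359). The call on Galnt18 was lost without low 1 (adjusted p = 0.0919) or high 1 (0.0684), and that on Galnt12 without low 2 (0.0645) or 3 (0.147) or high 1 (0.0938) or 2 (0.141). Galnt12 also missed the threshold with DESeq2 (adjusted p = 0.0531), upper-quartile factors (0.0536), library totals only (0.058) and thinned libraries (0.0673).

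The widely expressed Galnt1, Galnt2 and Galnt7 had means of 44.8 ± 8.22 CPM at 2.5 mM and 47.1 ± 2.66 CPM at 25 mM, 31.8 ± 3.57 CPM at 2.5 mM and 36.2 ± 3.53 CPM at 25 mM and 36.6 ± 3.58 CPM at 2.5 mM and 39.9 ± 1.68 CPM at 25 mM, with overlapping libraries (adjusted p = 0.785, 0.397 and 0.575). Galnt11 had a log2FC of 0.61 and Galnt16 of -1.47 (adjusted p = 0.158 and 0.183), on at most 200 and 38 counts in a library. Galnt5, Galnt6 and Galnt17 were not tested, with at most 12. Per kilobase of gene length Galnt14 stood at 35.7 ± 3.19 CPM at 2.5 mM and 23.1 ± 0.647 CPM at 25 mM, above every other Galnt gene in both, the next in low glucose being Galnt18 at 11.0 ± 1.95. This order too rests on gene length and not on coding length. The window before the start of Galnt14 (chr17:73710452-73710701, minus strand), shown as that of the fall with the smallest adjusted p, holds no CCAAT.
Galnt14: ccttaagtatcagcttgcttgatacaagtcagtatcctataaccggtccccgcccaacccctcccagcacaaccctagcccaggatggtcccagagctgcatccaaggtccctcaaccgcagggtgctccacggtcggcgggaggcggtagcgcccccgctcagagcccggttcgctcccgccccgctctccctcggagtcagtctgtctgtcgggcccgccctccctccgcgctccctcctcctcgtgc

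The galactosyl- and GalNAc-transferases lengthen chains and were counted as a family among the Golgi groups, whatever the place of each enzyme in the cell. Of 19, 15 were tested, with 3 higher and 1 lower and a median log2FC of 0.23. B4galt5, a main enzyme of lactosylceramide synthesis, had 62.2, 54.5 and 56.4 CPM at 2.5 mM and 81.7, 79.0 and 73.7 CPM at 25 mM. The conditions did not overlap (log2FC 0.44, SE 0.10, adjusted p = 0.00322). B4galt1, which adds galactose to the branches of N-glycans, had 50.1, 57.0 and 51.2 CPM at 2.5 mM and 71.8, 70.3 and 61.5 CPM at 25 mM, without overlap (log2FC 0.36, SE 0.11, adjusted p = 0.0208). B3galnt2, which acts on the O-mannose chain of dystroglycan, had 17.2, 17.9 and 13.3 CPM at 2.5 mM and 28.0, 24.1 and 22.9 CPM at 25 mM, and its lowest high library was above its highest low one (log2FC 0.63, SE 0.18, adjusted p = 0.0154). The span of B3galnt2 overlaps that of Tbce, and the sources used here do not say whether strand was used in counting, so reads of the shared stretch could belong to either. The call on B4galt1 was lost without low 1 (adjusted p = 0.0586) or 3 (0.0711) or high 1 (0.0956) or 2 (0.0815), and that on B3galnt2 without low 3 (0.0835) or high 1 (0.0831).

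B4galt7 and B3galt6 add the galactoses of the linker through which glycosaminoglycan chains hang on proteoglycans. B4galt7 had 5.41, 11.7 and 9.67 CPM at 2.5 mM and 4.04, 4.74 and 3.80 CPM at 25 mM, lower with low 1 close to the high libraries (log2FC -1.09, SE 0.33, adjusted p = 0.0192). The call was lost without low 2 (adjusted p = 0.13) or 3 (0.0659) or high 1 (0.0528) or 3 (0.0682) or with thinned libraries (0.0502), and its counts reached at most 136 in a library. B3galt6, with the most footprints of the group, had 87.0, 84.9 and 75.9 CPM at 2.5 mM and 71.6, 70.3 and 63.0 CPM at 25 mM. Its conditions did not overlap and it did not pass (log2FC -0.27, SE 0.10, adjusted p = 0.0539), but was lower without low 3 (adjusted p = 0.041). It was lower too with DESeq2 size factors in edgeR (adjusted p = 0.0449), upper-quartile factors (0.0259), library totals only (0.0247), at least 10 counts in every library (0.0328) and thinned libraries (0.0265). Of the others, B3galnt1 had a mean of 19.9 ± 2.26 CPM at 2.5 mM and 26.3 ± 4.49 CPM at 25 mM, B4galt6, a relative of B4galt5, 47.9 ± 5.64 CPM at 2.5 mM and 44.0 ± 8.60 CPM at 25 mM, and B4galt3 25.6 ± 2.33 CPM at 2.5 mM and 28.4 ± 4.64 CPM at 25 mM (adjusted p = 0.109, 0.607 and 0.57). B3galt5 had no overlap at 52.1 ± 2.41 CPM at 2.5 mM and 47.3 ± 0.717 CPM at 25 mM (adjusted p = 0.42). B3galt9, B4galnt1, B4galnt2 and B4galt2 were not tested.

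Sialyltransferases cap chains with sialic acid, and 16 of 21 were tested. Their median log2FC was -0.26, the lowest of the 9 groups, but only 1 was lower and 1 higher, and 10 of the 16 had a log2FC below 0. St8sia5 (ENSMUSG00000025425, chromosome 18), which extends gangliosides, had 25.3, 19.6 and 31.5 CPM at 2.5 mM and 43.1, 44.9 and 63.6 CPM at 25 mM. This was the largest log2FC among the called genes, with no overlap between conditions and high 3 well above the other 2 (log2FC 0.99, SE 0.17, adjusted p = 0.000203). St3gal1, which caps the core of mucin-type chains, had 14.6, 12.5 and 18.2 CPM at 2.5 mM and 7.27, 7.50 and 8.99 CPM at 25 mM, lower in every high glucose library (log2FC -0.93, SE 0.24, adjusted p = 0.00637). Its adjusted p was 0.0511 without low 3. St3gal5, the enzyme that makes the first ganglioside and the sialyltransferase with the most footprints, had 50.2, 53.3 and 51.8 CPM at 2.5 mM and 59.8, 52.9 and 56.7 CPM at 25 mM, overlapping (log2FC 0.12, SE 0.11, adjusted p = 0.478). St6gal1, which sialylates N-glycans, had a mean of 26.5 ± 7.45 CPM at 2.5 mM and 22.8 ± 1.50 CPM at 25 mM (log2FC -0.22, SE 0.19, adjusted p = 0.456). The more negative estimates belong to genes with few counts, St3gal2 at -1.52 and St8sia6 at -1.60 (adjusted p = 0.11 and 0.316), with at most 39 and 16 counts in a library. St8sia1, St8sia3 and St8sia4 had -0.31, 0.18 and -0.84, and none passed.

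Of 8 fucosyltransferases 5 were tested, with 1 higher and 1 lower. Fut8, which adds the fucose at the core of N-glycans, had 9.01, 7.20 and 11.8 CPM at 2.5 mM and 14.0, 14.8 and 17.2 CPM at 25 mM, with no overlap (log2FC 0.71, SE 0.24, adjusted p = 0.0333). Fut1 (ENSMUSG00000008461, chromosome 7), which makes the H antigen, had 9.86, 6.86 and 8.37 CPM at 2.5 mM and 3.48, 1.86 and 3.90 CPM at 25 mM. It fell in every high glucose library and had the largest fall of the called genes (log2FC -1.43, SE 0.36, adjusted p = 0.00517), on at most 103 counts in a library. The call on Fut8 was lost without low 1 (adjusted p = 0.0725) or 2 (0.136) or high 2 (0.0687) or 3 (0.133), with DESeq2 (0.0514) and with thinned libraries (0.063). Fut11, with the most footprints of the family, had 18.4, 14.0 and 16.4 CPM at 2.5 mM and 19.9, 19.3 and 17.9 CPM at 25 mM, overlapping (log2FC 0.23, SE 0.19, adjusted p = 0.44). Fut10 and Fut4 had a log2FC of -0.10 and 0.02, and Fut2, Fut7 and Fut9 had at most 4 counts in a library.

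The 7 genes that fell, Galnt14, Man1b1, Fut1, St3gal1, Galnt18, B4galt7 and Mgat4b, did so in the same libraries in which the acinar, endothelial, stellate and macrophage marker sums given above were lower. Among islet hormones, Gcg, Sst and Pyy were lower in high glucose too (log2FC -0.24, -0.42 and -0.35), while Ppy did not pass (0.10, adjusted p = 0.0521). The part of any of these cells in the 7 falls was not tested. For the 18 genes that rose, the duct and islet endocrine marker sums were higher in the same libraries, and their part was not tested either.

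Genes of the same pathway whose names fall outside the rule were grouped in 7 lists, in which 93 of 99 genes in the table were tested. Of these 19 were higher and 8 lower, with a median log2FC of 0.09, where 12.1% of all genes tested were higher and 10.2% lower. Single lists are small, and counts such as 1 of 10 or 2 of 16 lie near those shares. The dolichol list, which supplies the lipid carrier and its sugars, had none of 10 higher and 1 lower, Dpm3, a small subunit of dolichol-phosphate mannose synthase (log2FC -0.38, SE 0.061, adjusted p = 8.72e-05). Among OST subunits and partners at the translocon 2 of 7 were higher, the channel subunit Sec61a1 (log2FC 0.75, SE 0.054, adjusted p = 7.61e-10) and Ssr1 (log2FC 0.52, SE 0.062, adjusted p = 1.64e-06), and 2 were lower, Ssr2 (log2FC -0.52, SE 0.058, adjusted p = 6.33e-07) and the OST subunit Krtcap2 (log2FC -0.20, SE 0.066, adjusted p = 0.036). Ssr1 and Ssr2 are subunits of the same translocon-associated complex, and the OST subunit Tmem258 had a log2FC of -0.27 (adjusted p = 0.0857). The call on Krtcap2 was lost without low 3 (adjusted p = 0.14) or high 2 (0.195) or 3 (0.135), or with no low-count filter (0.114).

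Nucleotide sugars are the donors of these reactions, and 4 of 21 genes of their synthesis were higher and none lower. Gfpt1, the entry enzyme of the hexosamine pathway, was among them (log2FC 0.35, SE 0.048, adjusted p = 1.32e-05). So were Fpgt (log2FC 0.94, SE 0.15, adjusted p = 8.92e-05) and Gfus (log2FC 0.85, adjusted p = 0.0369), which make GDP-fucose, and Gmppb (0.31, 0.0196), which makes GDP-mannose. Of 10 nucleotide sugar transporters 1 was higher, Slc35c1, which carries GDP-fucose into the Golgi (log2FC 1.29, SE 0.14, adjusted p = 3.15e-07). Gmds and Fcsk, other genes of GDP-fucose supply, had 0.05 and 0.09 and did not pass.

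Of 15 genes that read the glycan during folding, export and degradation, 5 were higher and 2 lower. The membrane lectin chaperone Canx was higher (log2FC 0.28, SE 0.039, adjusted p = 1.34e-05) and its soluble counterpart Calr was lower (log2FC -0.41, SE 0.035, adjusted p = 1.09e-08). The cargo lectin Lman1 (log2FC 0.42, SE 0.067, adjusted p = 6.98e-05), the folding sensor Uggt1 (log2FC 0.25, adjusted p = 0.00251) and the mannosidase-like Edem2 (0.22, 0.0436) and Edem3 (0.71, 0.000114) were higher too, and the degradation lectin Os9 was lower (log2FC -0.16, SE 0.058, adjusted p = 0.0476). The call on Os9 was lost without any 1 of 5 libraries, low 1, low 2 and all high glucose libraries (adjusted p = 0.0672 to 0.205), with no low-count filter (0.186) and with TMM leaving out islet hormones and ribosomal proteins (0.0523). Of 14 genes listed for the upkeep of glycosyltransferases in the Golgi, 5 were higher and 3 lower. These counts include accessory subunits of the proton pump, Atp6ap2 (higher, log2FC 0.19, adjusted p = 0.00325) and Atp6ap1 (lower, -0.13, 0.0293). The COG tethering subunits Cog8 (log2FC 0.80, SE 0.099, adjusted p = 2.86e-06) and Cog1 (log2FC 0.57, SE 0.12, adjusted p = 0.00123) were higher, while Cog5 (log2FC -0.36, SE 0.11, adjusted p = 0.026) and Golph3l, an adaptor that retains enzymes (log2FC -0.51, SE 0.12, adjusted p = 0.00326), were lower. The call on Cog5 was lost without low 2 (adjusted p = 0.118) or 3 (0.0973) or high 1 (0.0506) or 2 (0.151). Of 16 other glycosyltransferases tested, not all of them enzymes of the Golgi, 2 were higher. They were B3gnt3 (log2FC 0.52, SE 0.083, adjusted p = 7.16e-05) and Pofut1, the O-fucosyltransferase of Notch-type repeats (log2FC 0.68, SE 0.17, adjusted p = 0.00613). Pofut1 had an adjusted p of 0.0525 without high 3.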

How the data were processed

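Per the study's methods, RNase I digestion was followed by size exclusion and PAGE to isolate monosome footprints, then by rRNA depletion and small RNA library preparation. The authors filtered out rRNA and tRNA with Bowtie, aligned with TopHat2 (version 2.0.12) and obtained counts for each gene with HTSeq (version 0.9.1). The build in the submitters' processing notes is mm10. These deposited counts are whole numbers with no depth scaling. The gene start and end columns of the table are not on the coordinates of mm10, so positions are given only for RefSeq promoter windows (GRCm38.p6). The gene length column, deposited by the authors without a definition, served for levels per kilobase in place of the coding length.

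Members and gene lists were chosen with earlier results of these data known. One line without a gene name was left out. In R (version 4.3.3), edgeR (version 4.0.16) was run with filterByExpr by condition, TMM and the quasi-likelihood F test over 13100 genes (common dispersion 0.0422, 4 residual and 17.6 prior degrees of freedom), with a threshold of 0.05. Log2 ratios used a prior count of 2. The tests of edgeR and DESeq2 were checked on simulated data with known changes, and the permutation test of the ratios was not. Values were given in every library for all called genes, the genes of the 3 ratios and the gene with the most counts of each role, and for related lists for the 2 higher and 2 lower genes with the smallest adjusted p, while others named there were chosen after their values were seen. Replicates are separate pools of mice, and p-values rest on 3 libraries per condition.

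Alternatives were DESeq2 (version 1.42.0), its size factors in edgeR, upper-quartile factors, scaling by library totals alone, TMM leaving out islet hormones and ribosomal proteins, omitting the low-count filter, a minimum of 10 counts in each library, the replicate number as a block, a prior count of 0.5 for the ratios and each library left out. Thinning all libraries to the smallest total (9242549) was added after seeing the data. RNA-seq of the study, footprint positions along mRNAs and translation efficiency were not analysed here.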

Additional observations from a re-analysis of the deposited data

How the results depend on the processing

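Of the 25 genes called, 13 kept their call under all 15 alternatives (Dad1, Ganab, Alg5, St8sia5, Alg2, Magt1, Galnt10, Alg8, Rpn2, B4galt5, Galnt14, Man1b1 and Fut1). Stt3b lost it under 10 alternatives and Galnt12 under 8. DESeq2 called 21 of the 25, library totals only 21, upper-quartile factors 22 and libraries thinned to the smallest total 20 (on 85 genes tested in place of 89). Calls near the threshold thus depend on these settings. The median log2FC of the genes was 0.15 with DESeq2, 0.035 with upper-quartile factors, 0.029 with library totals only, 0.20 without a low-count filter and 0.12 with the replicate number as a block, and ran from 0.058 to 0.12 with single libraries left out. With DESeq2 and without a low-count filter it covered the 105 genes with any count, in place of 89. With library totals only, 14 genes were higher and 10 lower, and over all genes 1311 and 1585 in place of 1579 and 1333, while no scaling moved the median of all genes by more than 0.048. Lower genes of the related lists numbered 5 without a low-count filter and 4 to 8 with single libraries left out. Estimates near 0 changed sign, for Prkcsh to -0.0014 with upper-quartile factors and -0.0092 with library totals only, and for Tusc3 to 0.016 without a low-count filter and, with single libraries left out, from -0.089 to 0.062, above 0 without low 1, low 2, high 1 or high 2 (0.012 to 0.062). The replicate number as a block kept all 25 calls and no others among the tested genes were called. Although the islets of each mouse were divided between conditions, the labels do not say that equal numbers share mice, and the deviations of same-numbered libraries correlated at 0.0068 to 0.0105. Every library correlated best with its own number. The 3 log2 ratios kept their sign in every setting run. The cause of these changes was not tested.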
